A study of Homo sapiens with 5 samples.

Results

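The genes described here are the components of the Hippo pathway and target genes of its effectors YAP and TEAD. They are 36 gene rows out of 43714 in the count tables, and every one of the 36 has a row. They were taken by name from a list of upstream kinases, scaffolds, transcription factors and targets. That list was chosen with earlier results of these data known. The study asked how H3.3, a histone variant deposited outside DNA replication, bears on metastasis of alveolar rhabdomyosarcoma, a cancer whose cells resemble muscle precursors. All libraries came from Rh41, an established alveolar rhabdomyosarcoma line labelled as fusion-positive (FP-RMS). In the first group, cells received an siRNA against H3F3A, which encodes H3.3, for 48 hours (n = 3 libraries, replicates 1, 2 and 3). In the second, cells received a scrambled siRNA for 48 hours (n = 2 libraries, replicates 1 and 3). Both groups were transfected with Lipofectamine RNAiMAX, and total RNA was collected for poly-A sequencing. The model is a single cell line, and the labels do not say whether replicates were separate cultures, so the spread that p-values rest on may be only technical.

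In the Hippo pathway, the MST kinases phosphorylate the LATS kinases, which in turn phosphorylate the coactivators YAP and TAZ and keep them out of the nucleus. When this cascade is inactive, YAP and TAZ enter the nucleus, bind TEAD factors and switch on genes for matricellular proteins, growth factors and cytoskeletal regulators. In skeletal muscle precursors YAP is known for favouring proliferation over differentiation, and YAP activity has been studied in rhabdomyosarcoma.

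H3F3A, listed under the symbol H3-3A, had 9.38, 10.5 and 8.54 CPM (read counts scaled to library size) in H3F3A siRNA libraries, against 294 and 269 CPM in scrambled libraries. H3F3B, the other H3.3 gene, listed as H3-3B, averaged 819 CPM in H3F3A siRNA libraries and 821 CPM in scrambled libraries and was not called. Libraries held 28493573 to 30705963 counts in H3F3A siRNA cells and 29776931 to 30353965 in scrambled cells. Scrambled replicate 1 stood apart in its dependence on GC content. Its log2 CPM minus the mean of all 5 libraries changed by 0.144 per 10 percentage points of GC. The same slope was -0.0587 to -0.0392 in H3F3A siRNA libraries and -0.00664 in scrambled replicate 3. Because each slope is relative to that mean, a high slope in 1 library lowers those of the others. Reads of antisense neighbours cannot be told apart from those of a gene in unstranded counts. Rows of antisense or divergent transcripts named after members held at most 56 counts in H3F3A siRNA libraries and 49 in scrambled libraries (both AJUBA-DT). Fold changes are given both without and with a correction for GC content. All 10 rhabdomyosarcoma markers were detected, with a summed level of 4379 to 4432 CPM in H3F3A siRNA libraries and 4994 to 6146 CPM in scrambled libraries. Of these, CHRND and FGFR4 were called lower and TFAP2B higher. The 8 fibroblast markers summed to 1242 to 1301 CPM in H3F3A siRNA libraries and 1223 to 1344 CPM in scrambled libraries. Most of that came from COL3A1, 4 of the 8 stayed under 1 CPM, and PDGFRB and COL1A1 were called lower. With GC correction FGFR4 and TFAP2B were called, whereas CHRND, PDGFRB and COL1A1 were not (edgeR adjusted p = 0.0872, 0.0677 and 0.237). Summed epithelial, endothelial and immune markers were at most 6.2, 2.72 and 1.07 CPM in H3F3A siRNA libraries and at most 6.79, 3.27 and 0.96 CPM in scrambled libraries. Whether these marker differences have a part in the results below was not tested. In bulk RNA, fewer cells that express a gene and less RNA of it per cell cannot be told apart.

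Among the members, 3 genes fell after H3F3A siRNA: CCN1 and FJX1, which are YAP-TEAD targets, and the transcription factor gene TEAD4. None of the member kinases, scaffolds or coactivators passed the test in either direction. Of the 36 members, 33 had enough counts to be tested, 3 were called lower, 0 were called higher and 30 were not called, with edgeR's quasi-likelihood test at a Benjamini-Hochberg adjusted p under 0.05 over all 15859 genes tested. In the same test 2.69% of all genes were called lower and 0.504% higher, against 9.09% of the tested members called lower. At an unadjusted p under 0.05, edgeR gave 4 members lower, NF2 being the addition, and 2 higher, AMOT and MOB1B. DESeq2 called 3 members lower and 0 higher, beside 474 lower and 54 higher among all genes. The unadjusted counts, here and below, come without a rate over all genes to compare them with. With GC correction only CCN1 remained among the members called, while 1.13% of all genes were called lower and 0.504% higher. In 10 tested members every H3F3A siRNA library lay below both scrambled libraries, and in 2, STK3 and AMOT, every one lay above, while 17.1% of all genes tested lay wholly below and 16% wholly above. In the other 21 tested members the groups overlapped. The median log2 fold change of the 33 tested members was -0.05, beside 0.0073 for all genes tested.

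The levels of the members were compared per length, as CPM per kb of the longest annotated transcript. The TEAD factor TEAD2 had the highest level, with 68.6 CPM per kb in H3F3A siRNA cells and 73.6 in scrambled cells. MOB1A, an activator of the LATS kinases, had 54.4 CPM per kb in H3F3A siRNA cells and 50.6 in scrambled cells, and the LIM-domain scaffold AJUBA, which restrains LATS, had 51.5 in H3F3A siRNA cells and 53.3 in scrambled cells. YAP1 had 23.3 ± 2.09 CPM per kb (SD, n = 3) in H3F3A siRNA cells and 22.8 ± 3.45 (SD, n = 2) in scrambled cells. WWTR1, which encodes TAZ, had 23.7 ± 0.497 CPM per kb (SD, n = 3) in H3F3A siRNA cells and 25.7 ± 2.06 (SD, n = 2) in scrambled cells, within 1 SD of YAP1 in both groups. CCN1 was the highest of the targets at 33.8 CPM per kb in H3F3A siRNA cells and 45.2 in scrambled cells, whereas CCN2, often used beside it as a readout of YAP activity, had 5.18 CPM per kb in H3F3A siRNA cells and 5.97 in scrambled cells.

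**Figure D1:**
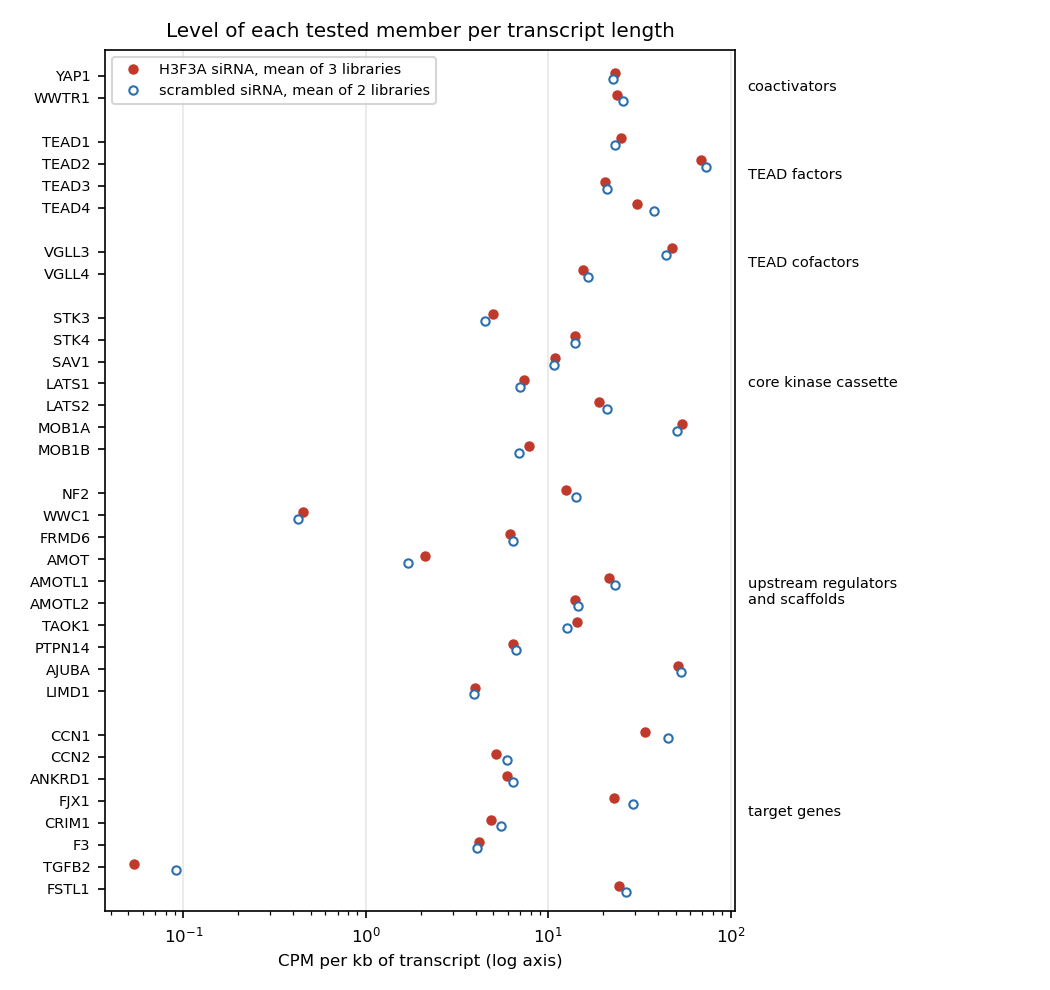
Mean level of each of the 33 tested members, in CPM per kb of transcript on a log axis, grouped by role, with filled red points for H3F3A siRNA (3 libraries) and open blue points for scrambled siRNA (2 libraries). TEAD2, MOB1A and AJUBA have the highest levels, TGFB2 and WWC1 the lowest, and most pairs of points nearly coincide.

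The coactivator genes showed no called difference. YAP1 had 113, 129 and 135 CPM in H3F3A siRNA libraries, against 110 and 136 CPM in scrambled libraries. The scrambled libraries bracket all 3 H3F3A siRNA libraries, and the log2 fold change was 0.03 (95% interval -0.16 to 0.22, edgeR adjusted p = 0.903). WWTR1 had 117, 122 and 119 CPM in H3F3A siRNA libraries and 122 and 137 CPM in scrambled libraries. Its groups met at 122 CPM, and the log2 fold change was -0.12 (95% interval -0.27 to 0.04, edgeR adjusted p = 0.468). The GC-corrected value for WWTR1 was -0.20, with an edgeR adjusted p of 0.0622. As a share of the summed CPM per kb of both coactivators, YAP1 made up 49.5% ± 2.07 (SD, n = 3) in H3F3A siRNA cells and 46.9% ± 1.79 (SD, n = 2) in scrambled cells.

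Among the TEAD genes, which encode the DNA-binding partners of YAP and TAZ, only TEAD4 was called. TEAD4, known in muscle for its part in myogenic differentiation, had 49.4, 49.2 and 56.1 CPM in H3F3A siRNA libraries, against 67.3 and 61.7 CPM in scrambled libraries. Every H3F3A siRNA library lay below both scrambled libraries. The means were 51.5 ± 3.93 CPM (SD, n = 3) in H3F3A siRNA cells and 64.5 ± 3.97 CPM (SD, n = 2) in scrambled cells, which is 1.25-fold lower (log2 fold change -0.32, 95% interval -0.49 to -0.15, edgeR adjusted p = 0.0322). This call was lost with GC correction (log2 fold change -0.17, edgeR adjusted p = 0.222). It was also lost when scrambled replicate 1 was left out (edgeR adjusted p = 0.203), when H3F3A siRNA replicate 1 was left out (0.228) and when H3F3A siRNA replicate 2 was left out (0.176).

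The other 3 TEAD genes were not called. TEAD1 had 193, 222 and 219 CPM in H3F3A siRNA libraries and 179 and 216 CPM in scrambled libraries, and its groups overlapped (log2 fold change 0.10, edgeR adjusted p = 0.61). TEAD2 had 160, 168 and 175 CPM in H3F3A siRNA libraries, against 183 and 176 CPM in scrambled libraries. Its highest H3F3A siRNA library lay just under its lowest scrambled library, and the log2 fold change of -0.10 did not pass the test (edgeR adjusted p = 0.528). TEAD3 had 57.0, 62.8 and 63.0 CPM in H3F3A siRNA libraries and 66.7 and 59.1 CPM in scrambled libraries, again with overlap. Per length, TEAD4 made up 21.1% ± 0.928 (SD, n = 3) of the summed TEAD level in H3F3A siRNA cells and 24.5% ± 1.04 (SD, n = 2) in scrambled cells. TEAD2 held the largest share, 47.5% in H3F3A siRNA cells and 47.1% in scrambled cells.

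The cofactors VGLL3 and VGLL4, which bind TEAD factors in competition with YAP and TAZ, were not called. VGLL3, a cofactor also known from muscle cells, had 472, 517 and 502 CPM in H3F3A siRNA libraries and 419 and 501 CPM in scrambled libraries (log2 fold change 0.11, edgeR adjusted p = 0.535). VGLL4, which represses TEAD-driven transcription, ranged over 55.0 to 62.8 CPM in H3F3A siRNA libraries and 59.2 to 63.2 CPM in scrambled libraries. Both genes overlapped between groups.

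**Figure D2:**
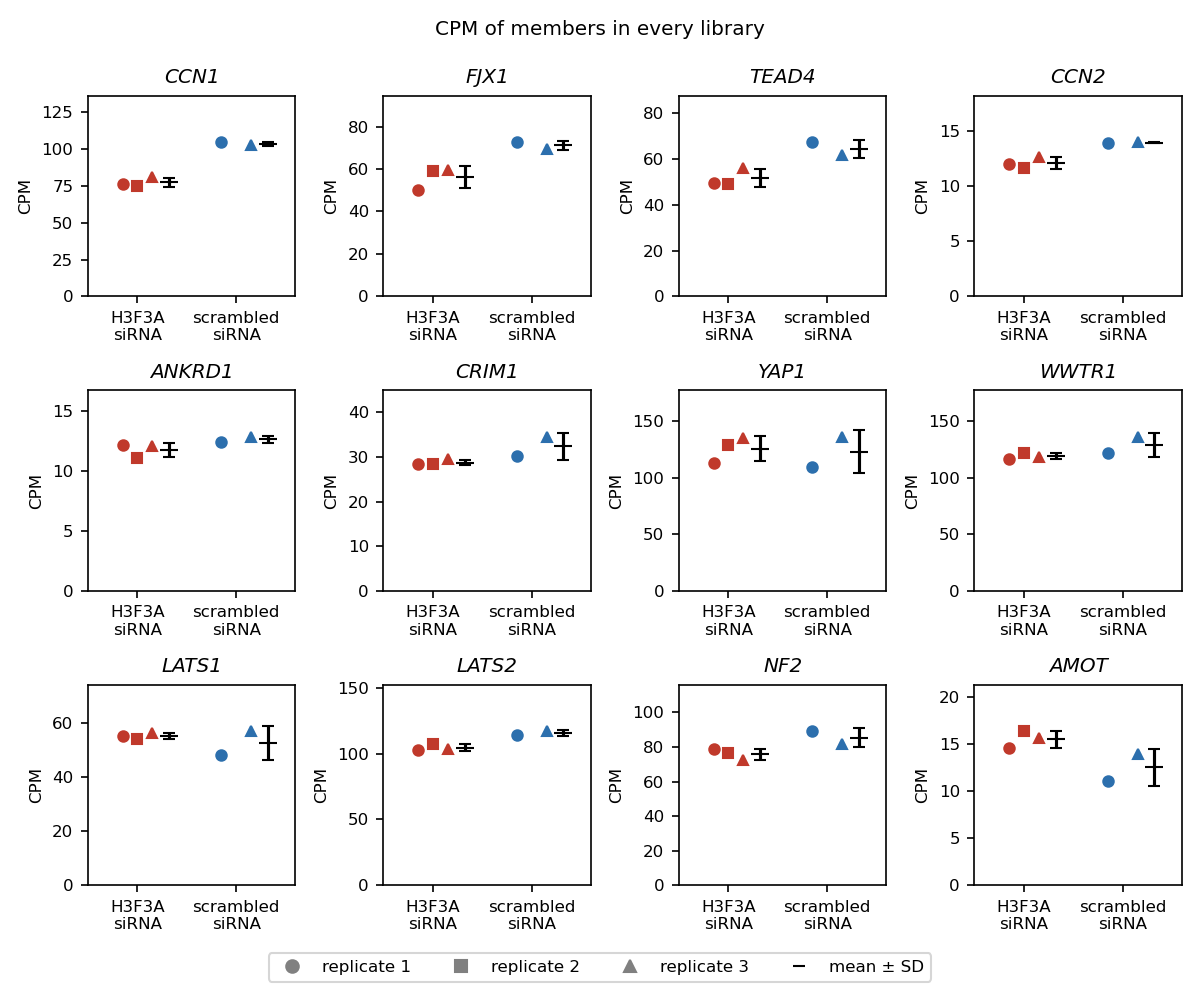
CPM of 12 members in every library, each panel with its own axis from 0, with H3F3A siRNA libraries (red, left) and scrambled siRNA libraries (blue, right), marker shape giving the replicate and a black line with bars the group mean ± SD. For CCN1, FJX1 and TEAD4 all 3 H3F3A siRNA points lie below both scrambled points, while for YAP1, WWTR1 and LATS1 the groups overlap.

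None of the 7 genes of the core kinase cassette was called, and their log2 fold changes ran from -0.15 to 0.18. LATS1, a kinase that phosphorylates YAP and TAZ directly, had 55.1, 54.2 and 56.2 CPM in H3F3A siRNA libraries and 48.2 and 57.0 CPM in scrambled libraries. The scrambled libraries bracket the others (log2 fold change 0.07, 95% interval -0.10 to 0.24, edgeR adjusted p = 0.731). Its paralog LATS2, which is also a YAP-TEAD target in a feedback loop, had 102, 107 and 103 CPM in H3F3A siRNA libraries, against 114 and 117 CPM in scrambled libraries. Here every H3F3A siRNA library was below both scrambled libraries, but the log2 fold change of -0.15 did not pass the test (95% interval -0.30 to 0.0052, edgeR adjusted p = 0.317). Per length LATS2 made up 72.1% ± 0.783 (SD, n = 3) of the LATS level in H3F3A siRNA cells and 75.0% ± 1.89 (SD, n = 2) in scrambled cells.

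The MST kinases lie above LATS. STK4, which encodes MST1, had 86.6 to 92.0 CPM in H3F3A siRNA libraries and 85.0 to 93.5 CPM in scrambled libraries, with a log2 fold change of -0.0046. STK3, which encodes MST2, had 15.2 to 16.0 CPM in H3F3A siRNA libraries and 13.3 to 14.7 CPM in scrambled libraries. That is a separation without a call (log2 fold change 0.14, edgeR adjusted p = 0.487). Per length STK4 held 73.7% of the MST level in H3F3A siRNA cells and 75.7% in scrambled cells. The MST partner SAV1 overlapped between groups, as did MOB1A and MOB1B, with log2 fold changes of 0.0075, 0.10 and 0.18. MOB1A supplied 87.4% of the MOB1 level per length in H3F3A siRNA cells and 88.0% in scrambled cells.

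None of the 10 upstream regulators and scaffolds was called either. NF2, the tumour suppressor merlin, which brings LATS to the membrane, had 78.8, 76.3 and 72.2 CPM in H3F3A siRNA libraries, against 89.1 and 81.6 CPM in scrambled libraries. Its groups did not overlap, yet the log2 fold change of -0.17 missed the threshold (95% interval -0.33 to -0.01, edgeR adjusted p = 0.255). GC correction brought NF2 to -0.09. AMOT, an angiomotin that holds YAP in the cytoplasm, had the highest fold change of all tested members. It had 14.6, 16.4 and 15.6 CPM in H3F3A siRNA libraries, against 11.1 and 13.9 CPM in scrambled libraries. All 3 H3F3A siRNA libraries were above both scrambled ones, and the log2 fold change was 0.31 (95% interval 0.08 to 0.53, edgeR adjusted p = 0.133).

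AMOT was the minor angiomotin. Per length it made up 5.65% ± 0.25 (SD, n = 3) of the 3 angiomotins in H3F3A siRNA cells and 4.33% ± 0.471 (SD, n = 2) in scrambled cells. AMOTL1 made up 57.0% in H3F3A siRNA cells and 58.7% in scrambled cells. AMOTL2, itself a known YAP-TEAD target, made up 37.4% in H3F3A siRNA cells and 37.0% in scrambled cells. In both genes the groups overlapped, with log2 fold changes of -0.11 and -0.06.

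The remaining scaffolds and kinases overlapped between groups without exception. TAOK1, a kinase that activates MST, had a log2 fold change of 0.18. PTPN14, a phosphatase that retains YAP in the cytoplasm, had -0.06, and the FERM-domain gene FRMD6 had -0.05. The LIM-domain scaffolds AJUBA and LIMD1, which bind LATS, had -0.05 and 0.006. WWC1, the scaffold KIBRA, was low, with 2.76 to 3.53 CPM in H3F3A siRNA libraries and 2.86 to 3.19 CPM in scrambled libraries.

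The target genes contained CCN1, the largest called difference among the members. CCN1, earlier named CYR61, encodes a secreted matricellular protein that binds integrins and is among the most used readouts of YAP activity. It had 76.0, 75.1 and 80.8 CPM in H3F3A siRNA libraries, against 104 and 102 CPM in scrambled libraries. The groups were well apart. The means were 77.3 ± 3.06 CPM (SD, n = 3) in H3F3A siRNA cells and 103 ± 1.48 CPM (SD, n = 2) in scrambled cells, 1.34-fold lower (log2 fold change -0.42, 95% interval -0.57 to -0.27, edgeR adjusted p = 0.00347). GC correction gave almost the same value for CCN1, -0.41, with an edgeR adjusted p of 0.000618. CCN1 was called in 14 of 15 alternative analyses, with log2 fold changes between -0.45 and -0.39. The exception left out H3F3A siRNA replicate 1, which gave an edgeR adjusted p of 0.0846.

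FJX1 encodes a secreted protein related to the Drosophila four-jointed kinase, which acts on Fat and Dachsous cadherins in flies. It had 50.1, 59.2 and 59.5 CPM in H3F3A siRNA libraries, against 72.7 and 69.5 CPM in scrambled libraries. The groups did not overlap, with H3F3A siRNA replicate 1 the lowest. The means were 56.3 ± 5.33 CPM (SD, n = 3) in H3F3A siRNA cells and 71.1 ± 2.2 CPM (SD, n = 2) in scrambled cells, 1.26-fold lower (log2 fold change -0.34, 95% interval -0.51 to -0.16, edgeR adjusted p = 0.0288). GC correction brought FJX1 to a log2 fold change of -0.13, and the call was lost (edgeR adjusted p = 0.482). It was lost as well without scrambled replicate 1 (edgeR adjusted p = 0.152), without H3F3A siRNA replicate 1 (0.224) and without H3F3A siRNA replicate 2 (0.0699).

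CCN2, formerly CTGF, is a paralog of CCN1 with a role in fibrosis. It had 12.0, 11.7 and 12.7 CPM in H3F3A siRNA libraries, against 13.9 and 14.0 CPM in scrambled libraries. The groups were apart in the same direction as CCN1, but the change was not called (log2 fold change -0.20, 95% interval -0.41 to 0.0034, edgeR adjusted p = 0.307). ANKRD1, a nuclear ankyrin-repeat protein of striated muscle, had 12.1, 11.1 and 12.0 CPM in H3F3A siRNA libraries, against 12.4 and 12.8 CPM in scrambled libraries. These sets lay side by side without overlap, with a log2 fold change of -0.10 (95% interval -0.32 to 0.11, edgeR adjusted p = 0.659).

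Promoter sequence is shown for the targets because CCN2 and ANKRD1 hold the letters GGAATG, which TEAD factors are known to bind, while FJX1, the called gene of the 3, does not hold them in this window. The lines give the 250 bases before the transcription start from RefSeq (GRCh38.p14), 5′ to 3′ on the gene's strand, with GGAATG in capitals. CCN2 lies at chr6:131951373-131951622 on the minus strand, ANKRD1 at chr10:90921088-90921337 on the minus strand and FJX1 at chr11:35618210-35618459 on the plus strand.
CCN2: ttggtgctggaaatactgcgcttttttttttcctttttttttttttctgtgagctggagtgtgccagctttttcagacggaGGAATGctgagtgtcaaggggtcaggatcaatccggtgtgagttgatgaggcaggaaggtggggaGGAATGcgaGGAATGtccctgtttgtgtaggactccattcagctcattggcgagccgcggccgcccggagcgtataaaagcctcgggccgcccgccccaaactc
ANKRD1: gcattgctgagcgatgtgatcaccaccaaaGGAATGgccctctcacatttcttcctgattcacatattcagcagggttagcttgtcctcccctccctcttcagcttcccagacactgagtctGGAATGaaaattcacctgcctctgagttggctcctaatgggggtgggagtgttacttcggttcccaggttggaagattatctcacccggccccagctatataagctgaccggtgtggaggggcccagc
FJX1: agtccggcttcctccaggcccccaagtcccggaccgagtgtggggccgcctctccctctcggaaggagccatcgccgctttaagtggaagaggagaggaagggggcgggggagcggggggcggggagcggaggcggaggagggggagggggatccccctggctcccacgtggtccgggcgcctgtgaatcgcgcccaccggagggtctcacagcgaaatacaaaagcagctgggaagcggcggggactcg
The motif occurs 3 times in CCN2, beginning at -169, -104 and -95 relative to the start, and 2 times in ANKRD1, beginning at -220 and -128. ANKRD1 also holds the AP-1 motif TGANTCA, beginning at -195 and not overlapping the TEAD motif. RefSeq windows, which run from 250 bases before to 50 after each start, were matched for 29 of the 36 members, leaving out CCN1, TEAD4, TEAD1, STK3, LIMD1, CRIM1 and MYOCD. With both strands searched, GGAATG was found in 9 of the 29, of which 4 are among 8 targets (CCN2, ANKRD1, NUAK2 and TGFB2) and 5 among 21 other members (YAP1, LATS2, AMOTL2, PTPN14 and AJUBA). In all RefSeq windows the share holding it was 14%, and 16.7% of all genes had it in at least 1 window. TGANTCA was found in 4 members (ANKRD1, F3, LATS1 and MOB1B), and in 9.37% of all genes. Of the 9 members with the TEAD motif none was called, NUAK2 was not tested, and FJX1 was the only called member with a window. The call of FJX1 was lost with GC correction, and sequence outside the windows was not searched. With 1 called gene, the windows cannot decide whether motif and call go together.

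The other targets were not called. CRIM1, a membrane protein that binds bone morphogenetic proteins, had 28.4, 28.4 and 29.4 CPM in H3F3A siRNA libraries, against 30.3 and 34.6 CPM in scrambled libraries (log2 fold change -0.17, edgeR adjusted p = 0.31). FSTL1, a secreted glycoprotein, had 153, 139 and 141 CPM in H3F3A siRNA libraries and 155 and 161 CPM in scrambled libraries (log2 fold change -0.13, edgeR adjusted p = 0.41). Both sat below the scrambled libraries in every H3F3A siRNA library. F3, the tissue factor that starts coagulation, had 10.7, 8.86 and 9.09 CPM in H3F3A siRNA libraries and 9.29 and 9.26 CPM in scrambled libraries, with overlap and a log2 fold change of 0.04.

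TGFB2, a transforming growth factor ligand, was near the detection limit, with 7, 12 and 5 counts in H3F3A siRNA libraries and 18 and 9 counts in scrambled libraries. It passed the filter on low counts narrowly, with scrambled replicate 1 and H3F3A siRNA replicate 2 its highest libraries, and its log2 fold change of -0.77 had a 95% interval from -1.78 to 0.25. NUAK2, NT5E and MYOCD, which encode a stress-responsive kinase, an ectonucleotidase and a coactivator of smooth and cardiac muscle genes, were too low to test. NUAK2 had 0, 1 and 0 counts in H3F3A siRNA libraries and 0 and 2 in scrambled libraries. NT5E had 5 in each H3F3A siRNA library, against 7 and 10 in scrambled libraries, and MYOCD had 8, 10 and 8 in H3F3A siRNA libraries, against 7 and 6 in scrambled libraries. A difference in these genes was not detectable at this depth, where a count of 0 allows up to 0.0971 to 0.103 CPM.

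**Figure D3:**
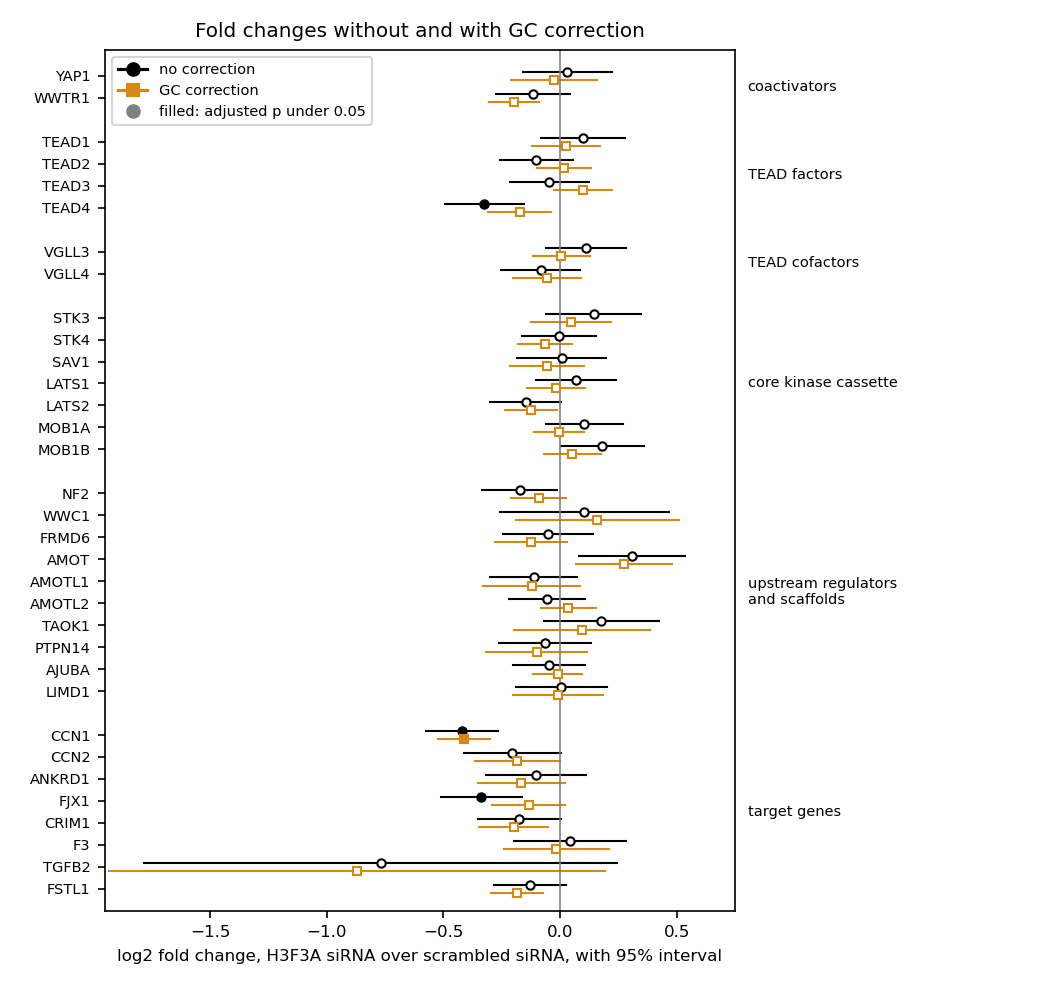
Log2 fold change of each tested member, H3F3A siRNA over scrambled siRNA, with its 95% interval, from edgeR without GC correction (black circles) and with it (orange squares), grouped by role, filled where the adjusted p was under 0.05. The corrected interval of TGFB2 runs past the left edge. CCN1 stays at -0.42 and -0.41, while FJX1 moves to -0.13 and TEAD4 to -0.17 with the correction.

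Set against each other by role, the member regulators lay around 0 and the 8 tested member targets below it. The 26 tested further YAP-TEAD targets, described below, had a median of -0.06, and -0.03 with GC correction. Of the 17 kinases, their partners and scaffolds, 8 had log2 fold changes below 0 and 9 above, with a median of 0.006. Neither edgeR nor DESeq2 called any of the 17. At an unadjusted edgeR p under 0.05 there were 1 lower and 2 higher, again without a rate over all genes. Of the 8 tested targets, 7 were below 0 and 1 above, with a median of -0.19 and 2 called lower by edgeR. Over all genes tested, 48.6% were below 0 and 2.69% were called lower. In 6 of these 8 targets the groups did not overlap, with H3F3A siRNA lower, beside 2 of the 17 regulators (NF2 and LATS2) and 17.1% of all genes tested. Another 2 regulators (STK3 and AMOT) lay wholly above, as did 16% of all genes tested. LATS2 and AMOTL2, which are also YAP-TEAD targets, are counted here as regulators only. With GC correction the medians were -0.01 for the regulators and -0.18 for the targets. All 8 targets were then below 0, beside 47.4% of all genes tested, and CCN1 alone of the 8 was called. These are descriptions of short lists chosen with earlier results of these data known, and the difference between the roles was not tested. One of the 8, TGFB2, was near the detection limit.

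The same values can be shown by library, as the median over a role of log2 CPM (edgeR, prior count 2) minus the mean of all 5 libraries. These medians restate the genes and libraries above and are no separate support. The targets stood at -0.09, -0.10 and -0.05 in H3F3A siRNA libraries, against 0.08 and 0.12 in scrambled libraries. All 3 H3F3A siRNA libraries were therefore below both scrambled ones. The core kinases stood at 0.03, 0.03 and 0.02 in H3F3A siRNA libraries, against -0.16 and 0.07 in scrambled libraries, and the upstream regulators at -0.04, 0.05 and 0.05, against -0.07 and 0.07. For both sets the scrambled libraries lay on either side of the H3F3A siRNA libraries. After GC correction the scrambled replicate 1 value of the core kinases was -0.03 in place of -0.16, and the targets stood at -0.09, -0.11 and -0.06 in H3F3A siRNA libraries and 0.10 and 0.12 in scrambled libraries.

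**Figure D4:**
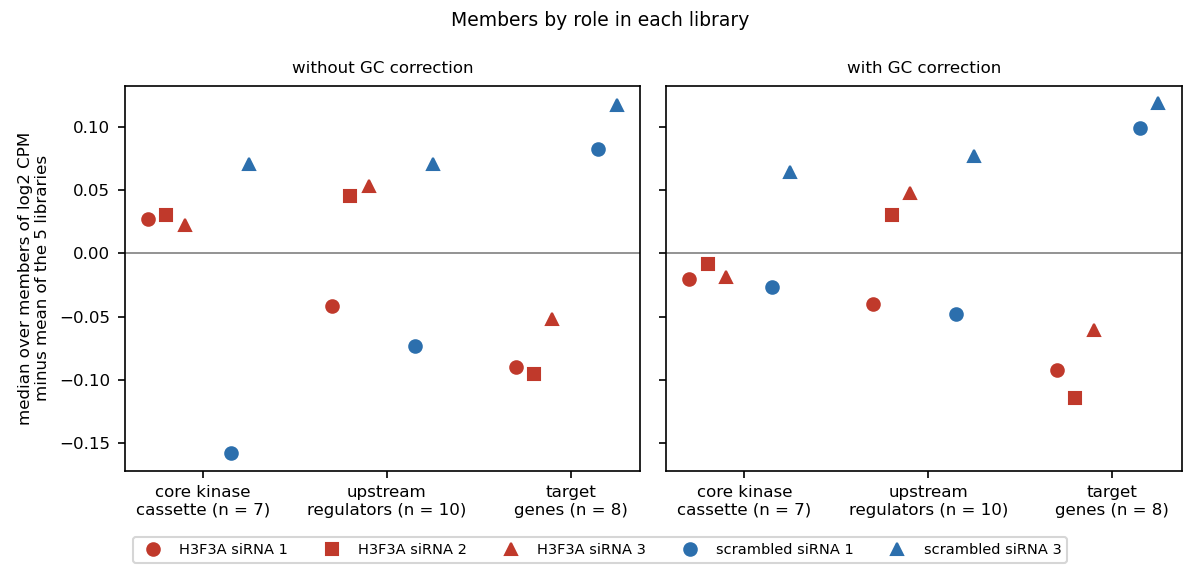
Median deviation of the core kinase cassette (7 genes), the upstream regulators (10) and the target genes (8) in each library, in log2 CPM minus the mean of the 5 libraries, without (left) and with (right) GC correction, with H3F3A siRNA libraries in red left of scrambled libraries in blue. Only for the target genes do all 3 H3F3A siRNA libraries lie below both scrambled libraries.

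The 3 called members differed in GC content. Across the 33 tested members, the log2 fold change had a Pearson r of -0.35 and a Spearman rho of -0.52 with transcript GC content, and across the 14250 tested genes with a known GC content it had -0.41 and -0.53. Without TGFB2, the member under 1 CPM, both were -0.62 across the other 32. These are correlations across genes that share the same 5 libraries, given as a description. FJX1, with 63.8% GC, belonged to the highest of 10 equal classes of genes by GC, whose median log2 fold change was -0.22, beside -0.34 for FJX1 itself. TEAD4, with 60.4% GC, was in the class below it, with a median of -0.14 beside -0.32 for TEAD4. CCN1, with 50.3% GC, was in a middle class with a median of -0.0005, beside -0.42 for CCN1. At the other end, MOB1B, STK3, MOB1A and VGLL3 belonged to the lowest class, whose median was 0.11, and had log2 fold changes of 0.18, 0.14, 0.10 and 0.11.

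**Figure D5:**
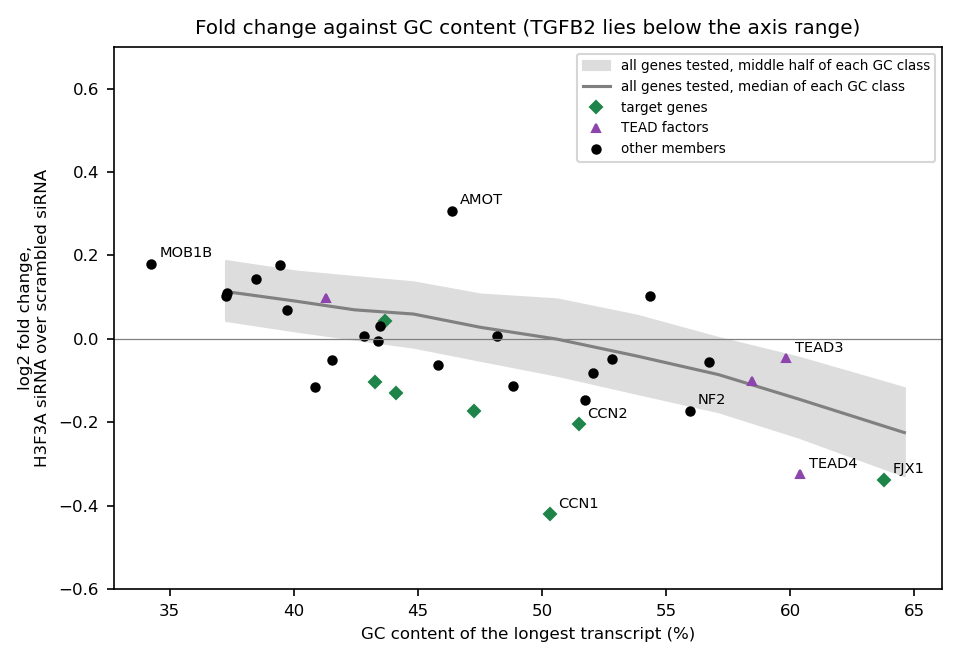
Log2 fold change, H3F3A siRNA over scrambled siRNA, against GC content of the longest transcript for the tested members (targets as green diamonds, TEAD genes as purple triangles, others in black), with the median and quartiles of 10 classes of all tested genes by GC content as a grey line and band (TGFB2, at -0.77, lies off the axis). TEAD4 sits below and FJX1 at the lower edge of a band that itself slopes down, and CCN1 sits well below a band centred near 0.

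The rest of the pathway was read from a list of 92 further genes, of which 82 were tested, 6 were called lower and 2 higher, against 2.69% and 0.504% of all genes. Their median log2 fold change was 0.02. Of the 26 tested further YAP-TEAD targets, 5 were called lower and 0 higher by edgeR, against the same shares of all genes. DESeq2 called 5 and 0 of them, beside 474 lower and 54 higher among all genes. At an unadjusted edgeR p under 0.05 there were 8 and 1, without a rate over all genes to compare them with. Of the 26, 15 had log2 fold changes below 0 and 11 above, with a median of -0.06. With GC correction 14 were below 0 and 12 above, with a median of -0.03, beside -0.01 for the member regulators. CCND1, the cell cycle regulator cyclin D1, had a log2 fold change of -0.52 (SE 0.0758, edgeR adjusted p = 0.000839), lower in 3 of 3 H3F3A siRNA libraries than in both scrambled ones. AXL, a receptor tyrosine kinase, had 48.3, 49.3 and 50.4 CPM in H3F3A siRNA libraries, against 64.3 and 62.9 CPM in scrambled libraries (log2 fold change -0.37, edgeR adjusted p = 0.00945). FOSL1, an AP-1 subunit, had 9.05, 8.17 and 9.48 CPM in H3F3A siRNA libraries, against 14.7 and 12.2 CPM in scrambled libraries (log2 fold change -0.60, edgeR adjusted p = 0.0055). THBS1, the matricellular protein thrombospondin, had 62.9, 71.0 and 66.2 CPM in H3F3A siRNA libraries, against 78.2 and 90.6 CPM in scrambled libraries (log2 fold change -0.34, edgeR adjusted p = 0.025). COL8A1, a collagen gene, was low, with 0.345 to 0.388 CPM in H3F3A siRNA libraries and 0.823 to 1.11 CPM in scrambled libraries (log2 fold change -1.39, edgeR adjusted p = 0.0299). All 5 were also called with GC correction, with log2 fold changes of -0.51 for CCND1, -0.32 for AXL, -0.45 for FOSL1, -0.38 for THBS1 and -1.42 for COL8A1. GC correction added a sixth, GADD45A, a growth arrest and DNA damage gene, at -0.24 (edgeR adjusted p = 0.0383), against -0.26 (0.0657) without it. In the GC-corrected fit 1.13% of all genes were called lower. No call of these 5 held without H3F3A siRNA replicate 1, where their edgeR adjusted p-values were 0.0561 for CCND1, 0.128 for AXL, 0.1 for FOSL1, 0.224 for THBS1 and 0.166 for COL8A1. Leaving out H3F3A siRNA replicate 2 lost AXL (edgeR adjusted p = 0.0609), THBS1 (0.0566) and COL8A1 (0.0877), and leaving out scrambled replicate 1 lost FOSL1 (0.124) and COL8A1 (0.122). COL8A1 was lost without scrambled replicate 3 (edgeR adjusted p = 0.11) and THBS1 without H3F3A siRNA replicate 3 (0.072).

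Further regulators gave 3 calls, none of which passed the threshold with GC correction, although each kept its sign. WTIP, a LIM-domain protein of the AJUBA family, had 86.5, 108 and 104 CPM in H3F3A siRNA libraries, against 130 and 123 CPM in scrambled libraries (log2 fold change -0.35, edgeR adjusted p = 0.0252). GC correction gave WTIP -0.28 (edgeR adjusted p = 0.0942). FAT3, an atypical cadherin, had 17.3, 24.3 and 20.1 CPM in H3F3A siRNA libraries, against 12.0 and 14.8 CPM in scrambled libraries (log2 fold change 0.62, edgeR adjusted p = 0.0101). GC correction gave FAT3 0.57 (edgeR adjusted p = 0.069). STK38L, a kinase related to LATS that can phosphorylate YAP, had 45.0, 43.5 and 42.2 CPM in H3F3A siRNA libraries, against 29.9 and 38.8 CPM in scrambled libraries (log2 fold change 0.34, edgeR adjusted p = 0.0496). GC correction gave STK38L 0.23 (edgeR adjusted p = 0.121). In all 3 genes the groups did not overlap. Without scrambled replicate 1 none of the 3 was called (edgeR adjusted p = 0.258 for WTIP, 0.341 for FAT3 and 0.538 for STK38L), nor without H3F3A siRNA replicate 1 (0.219, 0.0602 and 0.28). FAT3 and STK38L were lost without H3F3A siRNA replicate 2 too (edgeR adjusted p = 0.0599 and 0.149), and STK38L without replicate 3 (0.0574). RASSF4, an MST regulator known for its part in fusion-positive rhabdomyosarcoma and named here after its values were seen, had 76.5, 78.4 and 76.7 CPM in H3F3A siRNA libraries, against 88.7 and 79.0 CPM in scrambled libraries (log2 fold change -0.12, edgeR adjusted p = 0.462).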

How the data were processed

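The authors deposited raw read counts for each gene, with 1 unstranded and 2 stranded columns per file, and the unstranded counts were used. The 2 stranded columns were not used beyond a check that they split reads evenly. The submitters' processing notes name STAR 2.5 and HTSeq 0.6.1 without saying which made the files, and the hg19 build, although 4791 rows are numbered copies of genes. No coordinates were therefore taken from the files, and antisense or overlapping genes cannot be told apart. The 4 summary lines that name no gene were left out. Rows named exactly as the members were read out of a fit of all genes with edgeR 4.0.16 in R 4.3.3: filterByExpr (minimum count 10, total 15), TMM, robust quasi-likelihood fit, no covariates, Benjamini-Hochberg adjusted p under 0.05, and a biological coefficient of variation of 6.53%. CPM used TMM library sizes. GC correction worked on log2 CPM minus the mean of all 5 libraries. It removed each library's lowess trend (span 0.5) of that difference over GC content of the longest GENCODE transcript, through offsets. GC content was known for 89.9% of tested genes. The 15 alternatives covered scaling, DESeq2 1.42.0, filters, numbered copies, GC, a replicate block and leaving out each library. The fit was tested on simulated data. Values were given in every library for 13 members fixed by name and each other member called. They were also given for some members not called, among them AMOT, VGLL3, CRIM1, FSTL1 and F3. For TGFB2, NUAK2, NT5E and MYOCD they were given as counts. Other members have a range or only a log2 fold change. The members and lists were chosen with earlier results of these data known.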

Additional observations from a re-analysis of the deposited data

How the results depend on the processing

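Across 15 alternatives CCN1 was called in 14, FJX1 in 10 and TEAD4 in 8, each with the same sign throughout. Genes called lower were 427 and higher 80, against 639 lower with no filter on low counts. They were 270 and 43 at a mean of at least 5 CPM, 153 higher with no filter on low counts, 179 lower with GC correction, 323 and 116 with upper-quartile scaling, 9 to 1737 lower and 6 to 744 higher with a library left out. The lowest counts came without H3F3A siRNA replicate 1 and the highest without scrambled replicate 3. Members called lower were 3, but 1 with GC correction and 0 to 4 with a library left out, and higher 0, but 0 to 5 with a library left out, the 5 being TEAD1, MOB1B, AMOT, TAOK1 and VGLL3 without scrambled replicate 3. Other pathway genes called lower were 6 (0 to 16 with a library left out) and higher 2, but 1 with DESeq2, at 5 CPM and with numbered copies summed, 0 with GC correction and 0 to 10 with a library left out. With a library left out, medians ran from -0.21 to -0.15 for targets, -0.049 to 0.19 for core kinases, -0.069 to 0.064 for upstream regulators and -0.11 to 0.00014 for all tested members. With 1 scrambled library left, that library is assumed to vary like the others.

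Replicates 1 and 3 of both groups share only a number. Deviations of same-numbered libraries had r = 0.208 and 0.084 over 10501 genes, and those of the crossed pairs -0.208 and -0.084. Deviations of 2 scrambled libraries from their mean are mirror images, so these values cannot decide whether the numbers pair these 4 libraries. A replicate block over those 4 libraries, which drops H3F3A siRNA replicate 2, called 475 genes lower and 98 higher and 2 members lower (TEAD4 was lost, edgeR adjusted p = 0.0833), with a target median of -0.16. The replicate block with GC correction called 735 lower and 491 higher, 7 members lower (CCN1, FJX1, WWTR1, LATS2, AMOTL1, PTPN14 and FSTL1) and 11 other pathway genes lower, with a target median of -0.16.

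Members not called changed sign in 55 cases. With GC correction the log2 fold changes were -0.025 for YAP1, 0.016 for TEAD2, 0.097 for TEAD3, -0.055 for SAV1, -0.019 for LATS1, -0.0028 for MOB1A, 0.036 for AMOTL2, -0.010 for LIMD1 and -0.016 for F3. With the replicate block and GC correction they were -0.045 for YAP1, -0.014 for TEAD1, 0.016 for TEAD2, 0.075 for TEAD3, -0.058 for SAV1, -0.0068 for LATS1, 0.055 for AMOTL2, -0.078 for LIMD1 and -0.024 for VGLL3. STK4 was at 0.018 with upper-quartile scaling, 0.0012 with no filter and 0.00031 at 5 CPM, and LIMD1 at -0.060 with the block alone. With a library left out, the log2 fold change ran over -0.12 to 0.19 for YAP1, -0.036 to 0.24 for TEAD1, -0.13 to 0.041 for TEAD3, -0.075 to 0.065 for STK4, -0.13 to 0.15 for SAV1, -0.049 to 0.19 for LATS1, -0.19 to 0.10 for FRMD6, -0.22 to 0.00014 for AMOTL1, -0.040 to 0.43 for TAOK1, -0.21 to 0.10 for PTPN14, -0.11 to 0.015 for AJUBA, -0.098 to 0.11 for LIMD1, -0.015 to 0.25 for VGLL3 and -0.045 to 0.094 for F3. GC correction without scrambled replicate 1 called 55 genes lower and 18 higher. It gave a core kinase median of -0.072 and log2 fold changes of -0.14 for YAP1, -0.056 for TEAD1, 0.090 for TEAD3, -0.14 for SAV1, -0.072 for LATS1, -0.026 for MOB1A, 0.024 for AMOTL2, -0.063 for TAOK1, 0.022 for AJUBA, -0.11 for LIMD1 and -0.042 for VGLL3.

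Depth limits NUAK2, NT5E, MYOCD and TGFB2, where a difference was not detectable. The cause of these shifts was not tested.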
